A study of Sus scrofa with 55 samples.

Results

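Proteasome genes were examined in the cytoplasmic RNA of 55 single pig oocytes. They were chosen by name: a row was taken when its pig Ensembl symbol began with PSM, a letter from A to G and a digit, and 43 of the 25880 gene IDs in the count table met that rule. A total of 41 of the 43 encode proteasome subunits or factors that bind or build the proteasome, and the remaining 2, PSMC3IP and PSME3IP1, are proteins named after a subunit they were found to bind and are kept apart. The 41 genes comprise 6 of the alpha ring and 5 of the beta ring of the core particle, 6 ATPases and 10 other subunits of the regulatory cap, 3 chaperones of cap assembly and 1 of core assembly, 5 activators or inhibitors, 3 catalytic subunits of the immunoproteasome and 2 core subunits known from single tissues. No row carried the symbols PSMA6, PSMB5, PSMB6, PSMD2, PSMG1, PSMG2 or PSMG4, and these 7 genes were not analysed here.

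The oocytes were wild type and came from antral follicles of 5 stages in 4 pubertal gilts of the Landrace and Yorkshire breeds, aged 208 to 210 days. All gilts had been given 5 IU of PMSG, a gonadotropin from the serum of pregnant mares that stimulates follicles, and the ovaries were collected 48 h later. Stages 1 to 5 gave 11, 12, 11, 11 and 10 oocytes, and gilts 201, 205, 801 and 803 gave 14, 9, 12 and 20, with no stage 5 oocyte from gilt 801. Oocytes of 1 gilt share their source, so the gilt is the replicate, and all groups share the hormone treatment.

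The proteasome degrades proteins that have been tagged with ubiquitin. Its core particle is a barrel of outer alpha rings and inner beta rings, and some of the beta subunits carry the cutting sites inside the barrel. The regulatory cap sits on the end of the barrel, where it binds the ubiquitin chain, removes it and unfolds the protein with a ring of ATPases. Interferon induces alternative catalytic subunits that replace the constitutive ones in newly built cores, which are then called immunoproteasomes and supply peptides for antigen presentation. Oocytes rely on ubiquitin-dependent degradation to hold and leave meiotic arrest, through the anaphase-promoting complex and its target cyclin B.

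Counts per oocyte ran from 151104 to 38282850, and mitochondrially encoded genes took 2.10% to 91.8% of them. Levels are therefore given as CPM of all counts and, where named, as non-mitochondrial CPM, scaled to the counts that were not mitochondrially encoded. A total of 12 libraries held more granulosa and cumulus marker counts than oocyte marker counts, 11 of gilt 803 and 1 of gilt 801, and are called granulosa-rich below. Their granulosa and cumulus markers summed to 2998 to 23359 CPM, against 8.96 to 10736 CPM in the other 43 libraries; 11 of 14 listed markers were in the table, and AMH was at 0 in all 55. Oocyte markers were still counted in the granulosa-rich libraries, at 17.5 to 3034 CPM, against 306 to 55141 CPM in the others. Blood, immune and endothelial markers outnumbered oocyte markers in 2 libraries of gilt 803: the granulosa-rich stage 1 oocyte 1, and stage 2 oocyte 3, with 11583 CPM of the former and 306 CPM of the latter. How much of a proteasome count in these libraries came from cells other than the oocyte was not tested.

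Transcripts of the constitutive proteasome were present at every stage. Of the 41 genes, 21 were counted in at least 50 of the 55 oocytes and 4, PSMB8, PSMB9, PSMB11 and PSME1, in under 30. An oocyte held counts of 10 to 40 of the 41 genes, with a median of 36. The ATPase PSMC3 was the only one counted in all 55 libraries, and the catalytic subunit PSMB7 and the cap subunit PSMD3 followed with 54 each. Summed over all 41 genes, the proteasome took 107 to 7058 CPM, with a median of 1242. The range was narrower in non-mitochondrial CPM, from 972 to 7762.

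**Figure D1:**
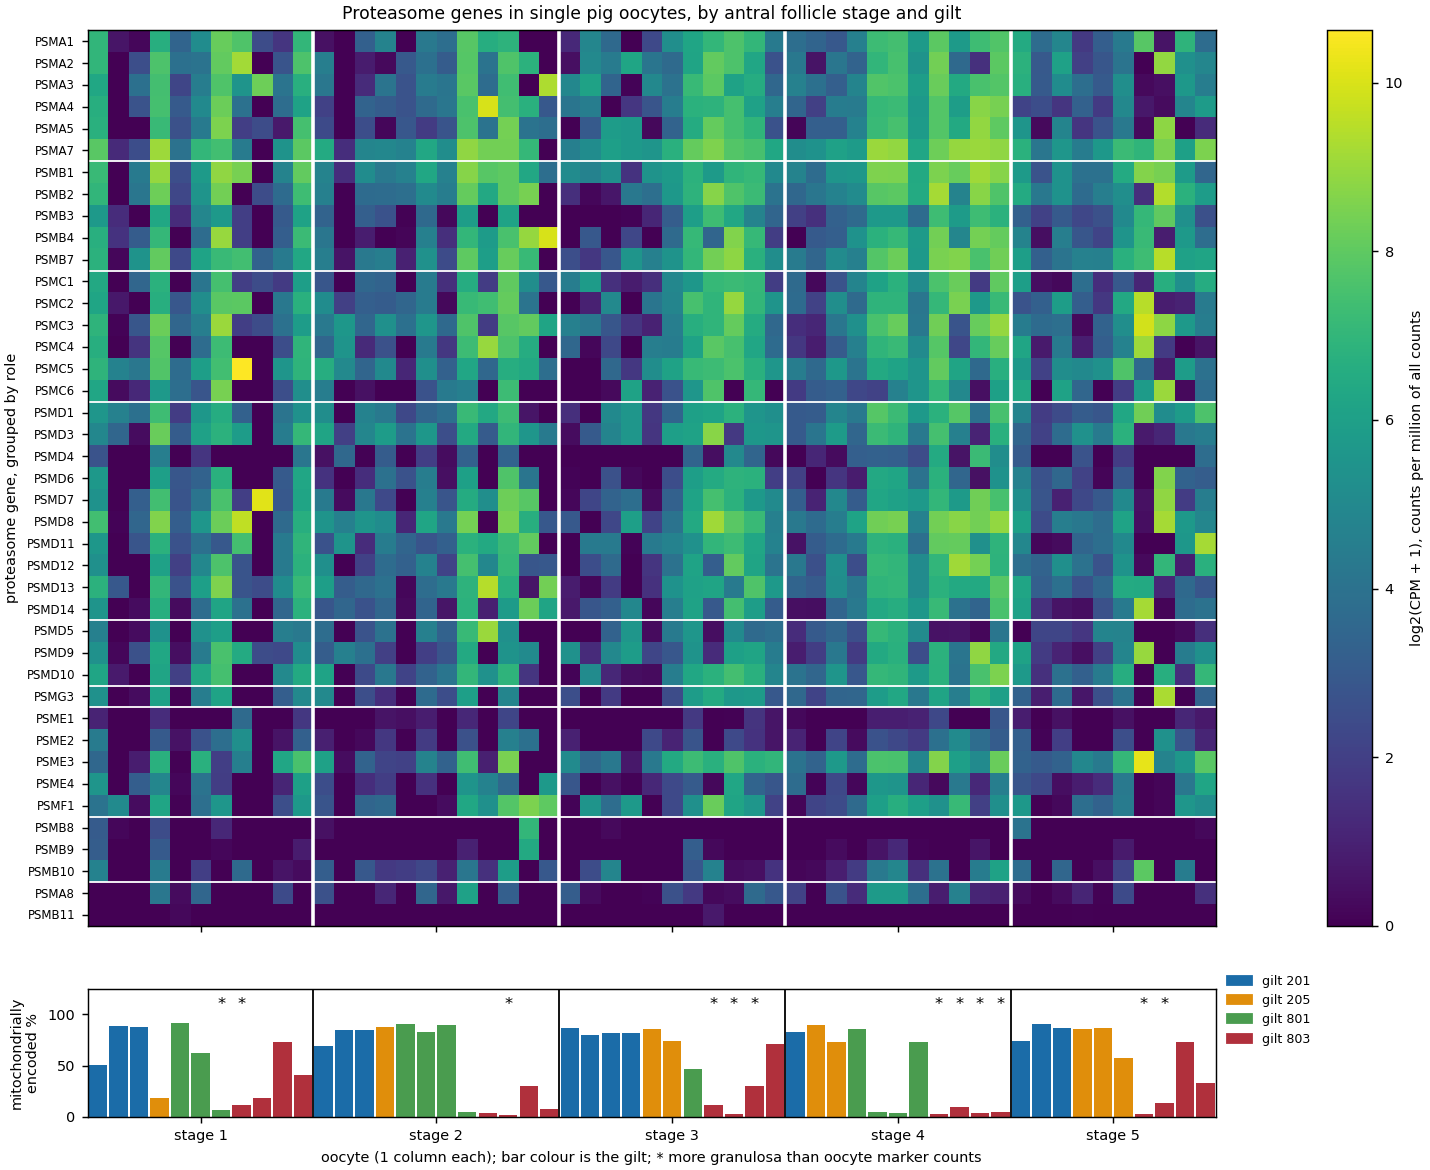
Heat map of log2(CPM + 1) for the 41 proteasome genes (rows, grouped by role) in 55 oocytes (columns, by stage and gilt), with the mitochondrially encoded percent of counts as bars coloured by gilt below and granulosa-rich libraries starred. Most columns with low mitochondrial percent are bright over the core and cap rows, and the rows of PSMB8, PSMB9 and PSMB11 are dark in nearly all columns.

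In the alpha ring, which forms the gate of the barrel, PSMA7 was counted in 53 oocytes, and its median CPM at stages 1 to 5 was 43.1, 58.2, 80.2, 313 and 87.4. Single oocytes reached 534 CPM at stage 1 and 524 CPM at stage 4, and the lowest was 0 at stages 1 and 2, so every stage overlapped every other. PSMA4 had stage medians of 14.6, 10.7, 21.9, 59.0 and 4.07 CPM. Its stage 5 oocytes spanned 0.235 to 56.0 CPM, against 0 to 304 CPM at stage 1, and the single highest oocyte, at 1003 CPM, was from gilt 803 at stage 2. The other 4 alpha genes, PSMA1, PSMA2, PSMA3 and PSMA5, were counted in 50 to 52 oocytes, with overall medians of 13.2 to 26.6 CPM.

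In the beta ring, PSMB1 is a subunit without a cutting site. Its medians at stages 1 to 5 were 53.8, 30.2, 43.1, 280 and 48.1 CPM, and its highest oocyte had 544 CPM at stage 4. PSMB3 medians were 6.93, 2.76, 7.80, 50.7 and 7.76 CPM, with 9 oocytes at 0, all at stages 1 to 3. PSMB7, the only constitutive catalytic subunit of the table, makes the trypsin-like cuts. It ranged from 0.153 to 267 CPM at stage 1 (median 69.9), from 0 to 284 at stage 2 (median 22.5) and from 2.33 to 445 at stage 3 (median 42.4). At stage 4 it ranged from 10.5 to 392 CPM (median 192) and at stage 5 from 8.48 to 717 CPM (median 63.7). The stage 4 median was the highest for PSMB7 as for PSMA7, PSMB1 and PSMB3, and its medians in non-mitochondrial CPM lay closer together, at 154, 97.4, 162, 199 and 172.

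Levels of different genes can be compared only per transcript length, in the deposited length-scaled table, which held 35 of the 41 genes. As a share of the summed length-scaled value of those genes in an oocyte, PSMB1 had the highest median, at 10.8%. PSMB7 followed with 9.37%, PSMB2 with 6.42%, PSMA7 with 4.95% and the lid scaffold subunit PSMD11 with 3.63%. PSMD8 had 3.33%, PSMC5 2.73% and PSMC3 1.97%, and among the standard subunits of their rings PSMA5 (1.36%) and PSMB3 (0.782%) had the lowest medians. PSMB10, the immunoproteasome counterpart of PSMB7, had a median share of 0.0934%, and the activator PSME4 one of 0.108%. These shares varied widely: PSMB7 ran from 0% to 41.4% and PSMB1 from 0% to 32.0% across oocytes, so the order of neighbours such as PSMB1 and PSMB7 lies within their spread.

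The ATPases of the cap unfold the substrate, and all 6 were in the table. PSMC3 had stage medians of 14.5, 42.9, 22.2, 38.8 and 21.3 CPM and a highest oocyte of 947 CPM at stage 5. PSMC6 was the most often missing of the 6, with 14 oocytes at 0 and stage medians of 5.98, 0.193, 1.05, 8.82 and 11.5 CPM. PSMC5 reached 1573 CPM in stage 1 gilt 803 oocyte 1, a granulosa-rich library with 343284 counts in all. Its stage medians were 61.4, 31.4, 46.2, 50.0 and 34.0 CPM.

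The 10 other cap subunits include PSMD8, part of the lid, and PSMD4, a ubiquitin receptor. PSMD8 medians were 46.7, 39.2, 23.8, 315 and 25.6 CPM over stages 1 to 5. PSMD4 was at 0 in 24 of the 55 oocytes and had medians of 0, 0.326, 0, 8.23 and 0 CPM, although each of the other 9 genes of this class was counted in at least 44 oocytes. A single oocyte, stage 4 gilt 803 oocyte 3, held 28.9% of all PSMD4 counts, at 150 CPM. PSMD14, the deubiquitinase that takes the ubiquitin chain off the substrate, was counted in 53 oocytes, with medians of 12.5, 10.0, 8.597, 18.6 and 8.81 CPM. Its highest oocyte, at 581 CPM, was a granulosa-rich library of stage 5.

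The chaperones of cap assembly are PSMD5, PSMD9 and PSMD10 (gankyrin). PSMD10 medians were 30.7, 12.7, 27.6, 53.7 and 17.5 CPM, and those of PSMD9 were 20.2, 6.71, 30.3, 18.2 and 12.1 CPM. PSMG3, the only chaperone of core assembly in the table, was counted in 41 oocytes, with medians of 7.92, 3.21, 4.90, 22.2 and 6.97 CPM. PSMD5 was counted in 42 oocytes, and its medians were 18.8, 10.96, 11.8, 6.97 and 1.95 CPM, lowest at stage 5. The ranges overlapped at every stage, from 0 to 61.7 CPM at stage 1 and from 0 to 26.4 CPM at stage 5.

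The alternative activators bind the ends of the core in place of the cap. PSME3, which forms a nuclear activator, was counted in 51 oocytes. It spanned 0 to 192 CPM at stage 1 (median 10.8), 0 to 360 at stage 2 (median 6.28) and 0.627 to 206 at stage 3 (median 86.1). At stage 4 it spanned 9.48 to 395 CPM (median 50.8) and at stage 5 7.11 to 1204 CPM (median 27.4). No oocyte of stages 3 to 5 was at 0, whereas 4 of stages 1 and 2 were, and the highest oocyte again was granulosa-rich and of gilt 803.

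PSME1 and PSME2 form the interferon-inducible activator and were much less often counted than PSME3. PSME1 was at 0 in 31 oocytes and never passed 11.7 CPM. PSME2 was counted in 39 oocytes, with stage medians of 5.41, 0.539, 0.952, 4.00 and 2.02 CPM. PSME4, the activator PA200, had medians between 2.33 and 4.15 CPM at all stages and a highest oocyte of 77.1 CPM. PSMF1, an inhibitor of the core in vitro, was counted in 47 oocytes, with medians of 13.9, 10.7, 38.8, 37.7 and 11.2 CPM.

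Among the interferon-inducible catalytic subunits, PSMB8 and PSMB9 were counted in few oocytes and PSMB10 in most. PSMB8 was counted in 9 of 55 oocytes, PSMB9 in 14 and PSMB10 in 39. PSMB8 had 625 counts in all, of which 250 lay in stage 2 gilt 803 oocyte 3 (129 CPM), the library rich in blood and immune markers. Next came 199 counts in stage 5 gilt 201 oocyte 1 (15.6 CPM), 82 in stage 1 gilt 205 oocyte 1 (4.53 CPM) and 74 in stage 1 gilt 201 oocyte 1 (7.19 CPM). The other 5 positive oocytes had 2 to 9 counts. At stage 4, PSMB8 had no count in 11 of 11 oocytes, which allows up to 0.0784 to 0.368 CPM per oocyte (3 counts, counting error only).

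PSMB9 had 626 counts, and 165 of them were in the same stage 2 library of gilt 803, at 85.4 CPM. A further 136 were in stage 3 gilt 801 oocyte 1 (8.11 CPM), 127 in stage 1 gilt 205 oocyte 1 (7.02 CPM) and 81 in stage 1 gilt 201 oocyte 1 (7.87 CPM). The 10 remaining positive oocytes were at or below 1.33 CPM. In RefSeq's Sscrofa11.1 annotation PSMB8 lies between TAP2 and TAP1 and PSMB9 between TAP1 and BRD2. TAP1, a peptide transporter of antigen presentation, was at 15.1 CPM in stage 1 gilt 201 oocyte 1 and at 8.46 CPM in stage 1 gilt 205 oocyte 1, both positive for PSMB8 and PSMB9, but at 1.55 CPM in the immune-marker-rich library. PTPRC, the leukocyte antigen CD45, was at 409 CPM in that library and at 2.43 and 9.40 CPM in the stage 1 oocytes. Because no strand setting is given, reads of neighbouring genes that overlap could not be told apart.

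PSMB10, which replaces PSMB7, was spread more evenly, with stage medians of 0.254, 3.29, 0.350, 2.58 and 1.94 CPM. Its highest oocytes of stages 1 to 5 had 25.3, 58.5, 27.8, 67.7 and 248 CPM, and each stage had oocytes at 0. Of its 8702 counts, 28.0% lay in stage 5 gilt 803 oocyte 1, a granulosa-rich library. The length-scaled PSMB10 to PSMB7 ratio, the only pairing of an immunoproteasome subunit with its counterpart that the table allows, had a median of 0.00778 over 54 oocytes. It was above 1 in a single oocyte, stage 3 gilt 201 oocyte 3 (1.53), where PSMB10 was 5.82 and PSMB7 3.80 in length-scaled units. Stage medians of the ratio were 0.000283, 0.0232, 0.000141, 0.00793 and 0.00679, and every stage included oocytes at 0.

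The core subunits known from single tissues were near the floor. PSMB11, the beta subunit of the thymus, had 9 counts in 3 oocytes and was not tested. PSMA8, the alpha subunit of the testis proteasome and a close relative of PSMA7, was counted in 35 oocytes, with stage medians of 0, 0.303, 0.267, 3.25 and 0.147 CPM. The 3 oocytes with the most counts held 73.0% of its 7154, and the top values were 66.9 CPM at stage 2 and 54.3 CPM at stage 4, both in gilt 801. How reads that match both PSMA7 and PSMA8 were assigned is not given in the sources used here. Of the 2 genes that are not subunits, PSMC3IP, the meiotic recombination factor HOP2, was counted in 35 oocytes with a median of 2.71 CPM, and PSME3IP1 in 52 with a median of 30.1 CPM.

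Summed by class, core and cap varied together across oocytes. The 11 core genes summed to 3.71 to 3438 CPM and the 16 cap genes to 66.2 to 3253 CPM. Core medians at stages 1 to 5 were 463, 286, 253, 1564 and 602 CPM, and cap medians were 1136, 429, 360, 1756 and 504 CPM. The stage 4 medians were highest, and stage 4 also had the lowest median mitochondrial share, 9.05%, against 50.98% to 76.1% at the other stages. Without its granulosa-rich oocytes, which were the 4 oocytes of gilt 803, the stage 4 cap median was 359 CPM. In non-mitochondrial CPM the core medians were 1244, 1630, 1405, 2325 and 1287, and the cap medians 1387, 1606, 1451, 1997 and 1855.

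**Figure D2:**
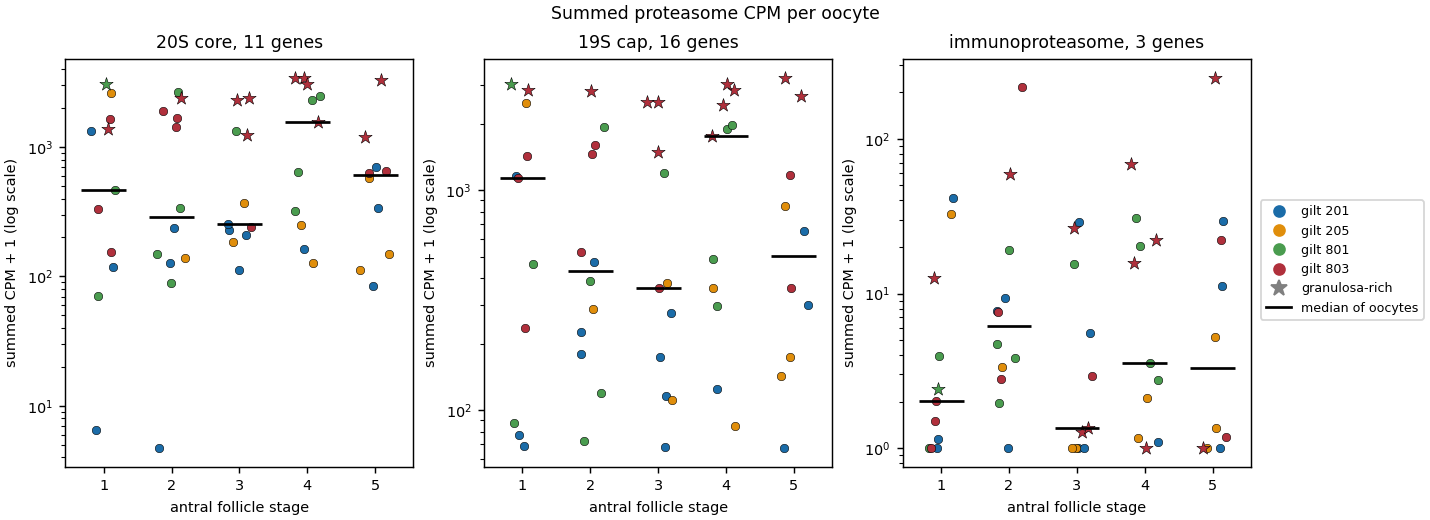
Summed CPM + 1 (log axis) of the core, cap and immunoproteasome genes in each oocyte by antral follicle stage, coloured by gilt, with granulosa-rich libraries as stars and black lines at the median of the oocytes. The stars lie in the upper part of the core and cap panels at every stage, the stages overlap, and the immunoproteasome sum stays at or below 248 CPM.

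Across the 55 oocytes the Spearman correlation with the mitochondrially encoded percent was -0.90 for the core sum and -0.93 for the cap sum in CPM, and -0.61 and -0.67 in non-mitochondrial CPM. Core and cap sums on the latter scale correlated at 0.71. Granulosa and cumulus markers, in CPM of all counts, correlated with these core and cap sums at 0.60 and 0.65. The marker values therefore still depended on the mitochondrial share. Pairs of core genes had a median correlation of 0.68 in CPM and 0.46 in non-mitochondrial CPM, pairs of cap genes 0.55 and 0.28, and immunoproteasome with core genes 0.37 and 0.24. The points share gilts, sequencing depth and library composition, so these are descriptions.

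The cap made up a median of 49.0% of core plus cap counts, and some oocytes departed far from that. Stage 2 gilt 201 oocyte 2 had 63 core counts from 3 of 11 genes and 3844 cap counts from 11 of 16 genes, in a library of 16983519 counts. Stage 1 gilt 201 oocyte 2 had 72 core counts and 883 cap counts, of which 327 were PSMC5. In the opposite direction, stage 2 gilt 803 oocyte 4, with 151104 counts the shallowest library, had 253 core counts and 79 cap counts, and PSMB4 alone gave 152 of the core counts. Stage 5 gilt 803 oocyte 1 had 11694 core and 31932 cap counts, and its PSME3, PSMD9 and PSMB10 counts were 11815, 4894 and 2433, each the only counted member of its class.

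**Figure D3:**
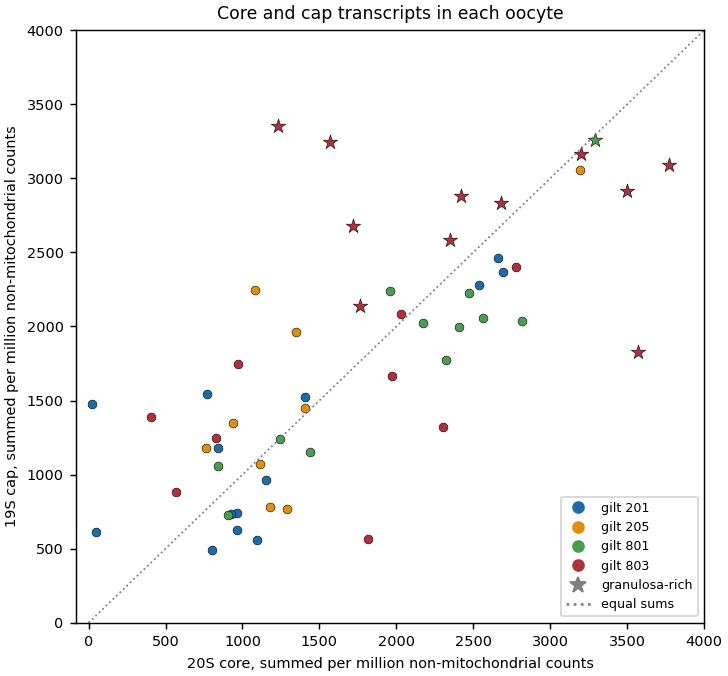
Summed core (x) against summed cap (y) non-mitochondrial CPM in each of the 55 oocytes, coloured by gilt, with granulosa-rich libraries as stars and a dotted line of equal sums. Most points follow the line, the stars lie at 1825 or more on the cap axis, and a pair of gilt 201 oocytes lies at the left edge with almost no core counts.

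To compare stages, counts were summed per gilt and stage and tested with edgeR's quasi-likelihood test, with stage and gilt in the model, two-sided and Benjamini-Hochberg adjusted over 15637 genes. A total of 40 of the 41 proteasome genes passed the filter on low counts. None passed an adjusted p of 0.05 in edgeR for any difference among stages, for stage 5 against stage 1, for any stage against the one before it or for a trend over stages. The background was as low: 0% of all genes tested were called in each stage comparison, and 0.0128% (2 genes) in the trend. At an unadjusted p under 0.05, 1 of the 40 stood out for any stage difference and 1 for stage 5 against stage 1, where 5.37% of all genes did in each. The other counts were 0 of 40 for stage 2 against stage 1 (6.61% of all genes), 0 for stage 3 against stage 2 (4.66%), 0 for stage 4 against stage 3 (4.13%), 1 for stage 5 against stage 4 (2.98%) and 1 for the trend (5.76%). DESeq2 on the same sums called only PSMB8, for stage 3 against stage 2, stage 4 against stage 3 and stage 5 against stage 4 (adjusted p = 0.0278, 7.13e-05 and 2.76e-09); PSMB8 had 2 counts at stage 3 and 0 at stage 4. Without the 2 libraries richer in blood and immune than in oocyte markers, a comparison added after seeing the data, edgeR called 0 of the 40 in these 7 comparisons too.

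For stage 5 against stage 1, 19 of the 40 fitted changes were above 0 and 21 below, with a median log2 change of -0.04 against -0.27 for all genes tested, of which 57.3% were below 0. The median SE was 0.88 log2 units, so a change of under about that size lay within the error of a single gene. The lowest changes were those of PSMB9 (log2 -5.52 ± 3.36), PSMB8 (-2.05 ± 1.77) and PSMA4 (-1.83 ± 0.78). The highest were PSME3 (1.38 ± 0.74), PSMB10 (1.08 ± 1.69) and PSMD11 (0.77 ± 0.85). The sign of some of these was not stable. PSMB10 was at -0.27 without gilt 803. PSMB8 was at 1.16 without gilt 205 and at -7.26 without gilt 201. It was at 1.78 without gilt in the model and at -0.62 without the 2 immune-rich libraries. PSMD11 was at -0.43 in the length-scaled table, which was fitted without scaling to depth.

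PSMA4 was the gene with the unadjusted p under 0.05 (0.0261), and its edgeR adjusted p was 0.904. Its TMM-scaled CPM (edgeR's trimmed-mean scaling) at stage 1 was 59.5 in gilt 201, 49.7 in gilt 205, 61.4 in gilt 801 and 26.9 in gilt 803. At stage 5 it was 10.4 in gilt 201, 14.7 in gilt 205 and 18.9 in gilt 803. The stage 5 sums of PSMA4 all lay below the stage 1 sums, and within each of the 3 gilts that had both stages the level was lower at stage 5. Each stage 1 sum came mostly or wholly from 1 oocyte. Counts per oocyte were 1040, 0 and 41 in gilt 201 and 3217 in the 1 oocyte of gilt 205. They were 166, 338 and 2176 in gilt 801, the last in a granulosa-rich library, and 5, 0, 77 and 273 in gilt 803. At stages 2 to 4 it ranged from 12.8 to 104 and overlapped both.

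PSME3 moved the other way in fitted value without passing the test, with an adjusted p of 0.930. Its TMM-scaled CPM at stage 1 was 6.44, 29.8, 26.0 and 92.7 in gilts 201, 205, 801 and 803, and at stage 5 it was 24.6, 63.5 and 243 in gilts 201, 205 and 803. On this scale the level was higher at stage 5 in each of the 3 gilts with both stages. The groups overlapped, since gilt 803 at stage 1 exceeded gilts 201 and 205 at stage 5. The direction in gilt 205 rested on its TMM factor, 3.585 at stage 1 (1 oocyte) and 0.836 at stage 5 (3 oocytes). Without the factor PSME3 was lower at stage 5 there. Stage 1 had 1930 of 18087666 counts, and the stage 5 oocytes had 564, 328 and 1739 of 49584484. PSMD11, at 29.3, 30.7, 7.38 and 50.0 at stage 1 and 27.8, 20.2 and 180 at stage 5, was higher only in gilt 803. Its counts in the stage 5 oocytes of gilt 803 were 0, 0, 233 and 12722, so the 180 came almost wholly from 1 oocyte. PSME3 counts in the same oocytes were 11815, 221, 235 and 5240, the first in a granulosa-rich library.

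**Figure D4:**
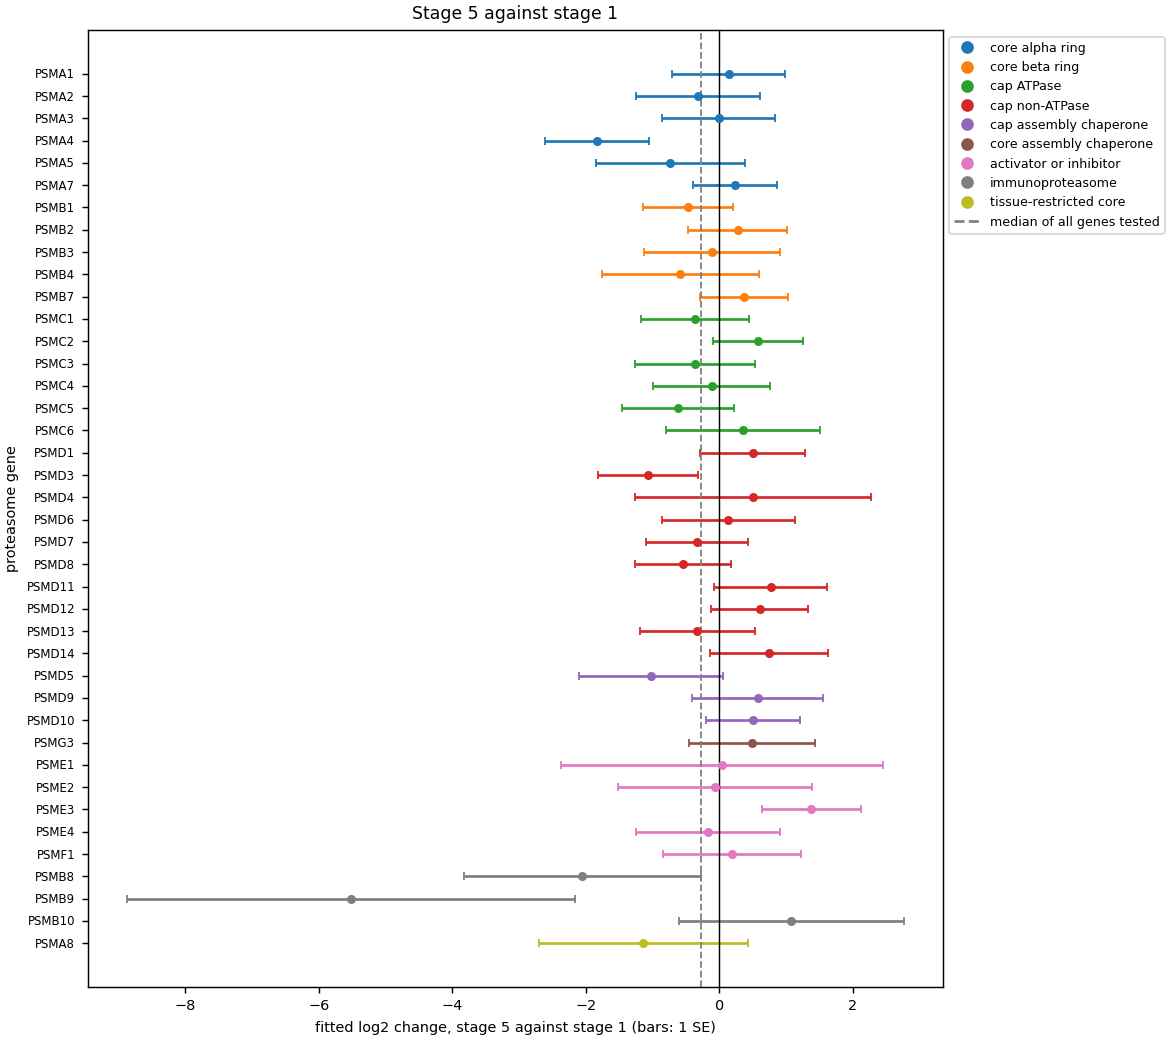
Fitted log2 change of each of the 40 tested proteasome genes, stage 5 against stage 1, with bars of 1 SE, coloured by class, a solid line at 0 and a dashed line at the median of all genes tested (-0.267). Most bars cross 0, and the widest belong to PSMB9 and PSME1, which were counted in few oocytes.

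The class sums gave the same picture over gilts. In TMM-scaled CPM, stage 1 had a core sum of 697 ± 85.1 (mean ± SD over gilts, n = 4) and stage 5 one of 710 ± 382 (n = 3); the cap sum was 680 ± 47.2 and 831 ± 379. At stage 5 the core sum was 1048 in gilt 201, 296 in gilt 205 and 786 in gilt 803, so the spread between gilts exceeded the difference between the stage means. The immunoproteasome sum was 8.401 ± 10.4 at stage 1 and 24.1 ± 19.6 at stage 5.

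Between neighbouring stages the genes of a class often shared a sign, and edgeR called none. For stage 2 against stage 1, 11 of the 11 core genes were below 0, where 63% of all genes were; median log2 changes were -0.52 for the alpha ring, -0.68 for the beta ring and -0.50 for all genes. For stage 3 against stage 2, the 11 core genes were all above 0, and 45.1% of all genes were below 0. The cap moved less at these steps. Its summed TMM-scaled CPM averaged 680, 681 and 736 over the gilts at stages 1, 2 and 3, against 697, 508 and 763 for the core. For stage 4 against stage 3, 30 of 40 proteasome genes were below 0, against 53.7% of all genes, including all 6 ATPases and all 6 alpha genes; the median was -0.47 against -0.12 for all genes. For stage 5 against stage 4, 31 of 40 were above 0, with 45.5% of all genes below 0, and the median was 0.58 against 0.16. At the same 4 steps the median of the 9 granulosa and cumulus markers was -3.25, 3.03, -2.91 and 1.06, and that of the 13 mitochondrially encoded genes was -0.89, 0.30, -1.10 and 0.92, so both lists had the sign of the median of the 40 proteasome genes at each step, and their part in it was not tested. The proteasome signs carry no test, neighbouring comparisons share a stage, and the smallest adjusted p for a proteasome gene in them was 0.776.

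In the trend over stages, 15 of 40 slopes were above 0 and 25 below, with a median of -0.06 log2 per stage, equal to the -0.06 of all genes, of which 57.5% were below 0. PSMB9 had the lowest slope (-1.54 ± 0.67, edgeR adjusted p = 0.824), followed by PSMB8 (-1.48 ± 0.80) and PSMD5 (-0.39 ± 0.28). PSME3 had the highest (0.31 ± 0.18), followed by PSMD12 (0.18 ± 0.15) and PSMD9 (0.16 ± 0.21). The slope of PSMD9 was -0.06 without gilt 803, that of PSMB8 was 0.20 without gilt in the model, and without the 2 immune-rich libraries those of PSMB8 and PSMB9 were -0.31 and -1.07.

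The gilts were then compared in the same model. Here the stage sums of a gilt served as its replicates, so these p-values do not measure how animals vary. None of the 40 genes was called for any difference among gilts, against 2.17% of all genes tested, and none for gilt 803 against the mean of the other gilts, against 4.68% (732 genes). In the latter contrast 34 of the 40 were nevertheless above 0, with a median log2 difference of 0.83 against 0.11 for all genes, of which 47.3% were below 0. The median of the 40 was 0.46 without gilt 205. In the length-scaled table, which was fitted without scaling to depth, 18 of 35 genes were above 0, with a median of 0.0021. There 36% of all genes were above 0, with a median of -0.14. By class, 5 of 5 beta genes, 5 of 6 alpha genes, 14 of 16 cap genes and 5 of 5 activators or inhibitors were above 0. The largest differences were those of PSMB4, a beta subunit (2.10 ± 0.80), PSMD4 (1.79 ± 1.39) and PSMD11 (1.65 ± 0.56). A single library, stage 5 gilt 803 oocyte 4, held 25.8% of all PSMD11 counts. The smallest adjusted p was 0.0745, for PSME3 (1.54 ± 0.49), and PSMD11 had one of 0.0995; 9 of the 40 had an unadjusted p under 0.05, against 17.3% of all genes (12.6% for any difference among gilts, where 2 of the 40 did).

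DESeq2 on the same sums and model called 4 of the 40, PSMC2, PSMD7, PSMD11 and PSME3, all higher in gilt 803, with adjusted p-values from 0.0134 to 0.0315. In that DESeq2 fit 2492 of all 15637 genes were called, a larger share than among the proteasome genes. The lowest differences in the edgeR fit were those of PSMD5 (-1.23 ± 0.76), PSMA8 (-1.18 ± 1.12) and PSMB9 (-0.70 ± 3.18). In the same contrast 9 of 9 tested granulosa and cumulus markers were above 0 (4 called), 9 of 9 oocyte markers were below 0 (5 called), and 13 of 13 mitochondrially encoded genes were below 0 (6 called). Gilt 803 held 11 of the 12 granulosa-rich libraries, and it was singled out because earlier results of these data had shown that it held most of them. The granulosa and oocyte marker signs therefore follow from that choice and are not a separate test. Without the 12 granulosa-rich libraries, 11 of the 40 proteasome genes were above 0 in gilt 803 and 29 below, with a median of -0.41. Of all genes, 45.4% were above 0 with a median of -0.16, and 5 genes of the whole table were called in place of 732. PSMD4 was then at -1.36 and PSMB9 at 1.57. That fit had 18 sums, with none of gilt 803 at stage 4. The SE of every proteasome gene was larger in it, as for PSMA5 (1.08, against 0.72 with all oocytes). The part of this lower precision in the fewer calls was not tested.

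**Figure D5:**
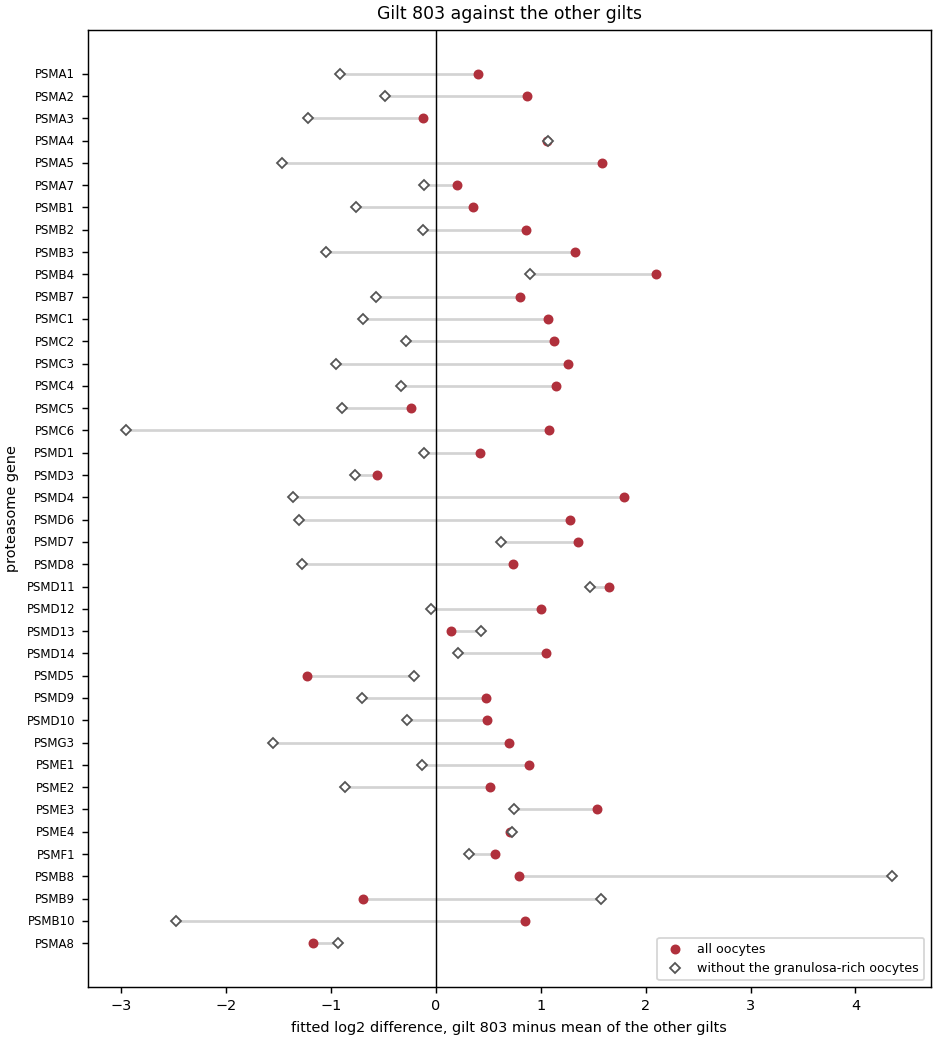
Fitted log2 difference of gilt 803 from the mean of the other gilts for each of the 40 tested proteasome genes, with all oocytes (filled) and without the 12 granulosa-rich oocytes (open diamonds). With all oocytes 34 lie above 0, and without them 29 lie below 0; PSMA4, PSMD11 and PSME4 hardly move.

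Set apart by the markers alone, the granulosa-rich libraries had higher median core and cap levels in non-mitochondrial CPM too. The core sum was 1228 to 3770 in them (median 2549) and 24.1 to 3197 in the other 43 (median 1244), and the cap sum was 1825 to 3355 (median 2898) against 488 to 3056 (median 1387). The ranges overlapped. Theca and stroma markers moved with the same split, at 718 to 4950 CPM (median 2443) in the granulosa-rich libraries and 0 to 6442 CPM (median 43.5) in the others, and their part was not tested. The mitochondrially encoded share was 2.10% to 30.2% in the granulosa-rich libraries and 3.62% to 91.8% in the others, and its part was not tested either. Of the 27 core and cap genes, 24 had the higher median in the granulosa-rich libraries. Within gilt 803 alone, where 11 libraries were granulosa-rich and 9 were not, this held for 25 of the 27. Those 9 included libraries of 220085 and 151104 counts, with 10 and 16 of the 41 genes counted, and the immune-rich stage 2 oocyte 3. In the 9 other libraries of gilt 803, 5 of the 27 had a higher median than in the 34 such libraries of the other gilts.

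PSMD8 was at a median of 353 non-mitochondrial CPM in the granulosa-rich libraries and 122 in the others. PSMA5 was at 244 and 33.9, and PSMC6 at 100.1 and 16.0. PSMD4 was counted in 8 of the 12 granulosa-rich libraries and in 23 of the 43 others. These comparisons are over libraries and not over animals, so no test was made, and in RNA from a mixed library fewer cells of a type and less RNA per cell cannot be told apart.

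A few members ran against that pattern. PSMD5 had a median of 0.497 non-mitochondrial CPM in the granulosa-rich libraries (range 0 to 65.8) and 41.2 in the others (range 0 to 546). The other libraries of gilt 803 also had a low PSMD5 median, 2.55, against 45.3 in those of gilts 201, 205 and 801. PSME4 had a median of 2.19 in the granulosa-rich libraries and 14.6 in the others, and here the remaining libraries of gilt 803, at 26.2, were not low. PSMA8 was at 0.554 and 2.62, PSMC5 at 129 and 159, PSMD3 at 68.0 and 94.2, PSMD13 at 92.6 and 109 and PSMF1 at 45.7 and 47.3. PSMC3IP, the recombination factor that is no subunit, had a median of 0 in the granulosa-rich libraries and 14.5 in the others.

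Genes that work with the proteasome were also not called between stages. Of 32 listed partners (ubiquitin receptors and shuttles, deubiquitinases, assembly and stress factors, ubiquitin and its activating enzymes), 28 were in the table and 27 tested. None was called for stage 5 against stage 1 or for the trend, and for the former 9 were above 0 and 18 below, with a median of -0.11. The farthest from 0 were the shuttle UBQLN4 (-3.36 ± 1.81), the ligase UBE3C (2.49 ± 2.28), PAAF1 (-2.21 ± 1.48), the deubiquitinase USP14 (1.81 ± 1.54) and the ubiquitin-activating enzyme UBA1 (-1.68 ± 0.85), with adjusted p-values from 0.927 to 0.991. In gilt 803 against the others, 1 of the 27 was called: VCP, the segregase that extracts ubiquitin-tagged proteins, was higher (2.85 ± 0.56, adjusted p = 0.00317), where 4.68% of all genes were called.

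Of 27 listed genes of the anaphase-promoting complex and other oocyte ubiquitin ligases, 24 were in the table and 23 tested, and none was called for a stage comparison or for gilt 803. For stage 5 against stage 1, 13 were above 0 and 10 below, with a median of 0.05. CDC23 had the farthest fitted change (9.11 ± 3.62), followed by ANAPC10 (-2.63 ± 1.97), ANAPC2 (-2.61 ± 2.29), ANAPC5 (2.08 ± 2.67), ANAPC7 (1.599 ± 0.72) and CDC27 (1.46 ± 0.81). All adjusted p-values of these complex subunits were 0.904 or above.

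Of 16 listed genes of antigen presentation and interferon response, the setting in which PSMB8, PSMB9, PSME1 and PSME2 are best known, 11 were in the table and tested. For stage 5 against stage 1, 2 were above 0 and 9 below, and in the trend all 11 slopes were below 0 with none called. The transporter subunit TAP2 had the lowest stage change (-5.15 ± 2.76), followed by the class II chaperone CD74 (-4.89 ± 1.55) and the class II transactivator CIITA (-4.44 ± 3.12), then ERAP1 (-2.18 ± 2.48), NLRC5 (-1.77 ± 2.23) and TAP1 (-1.55 ± 2.15). In gilt 803, CD74 was the only called gene of this list (6.72 ± 1.07, adjusted p = 0.000424; 4.68% of all genes were called), and 2 of 13 blood, immune and endothelial markers, C1QA and C1QC of macrophages, were also called higher there. For stage 5 against stage 1, 11 of those 13 markers were below 0 and 6 of the 13 had an unadjusted p under 0.05, against 57.3% and 5.37% of all genes; C1QA was 1 of the 2 genes called in the trend (-2.90 per stage, adjusted p = 0.0396). Their part in the PSMB8 and PSMB9 values was not tested.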

How the data were processed

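The authors deposited raw counts per Ensembl gene ID, as whole numbers with 1 column per oocyte and no normalization. Trim Galore 0.4.3 (trimming), HISAT2 2.1.0, StringTie 1.2.2 and featureCounts are listed in the submitters' processing notes. Genome build, annotation, strand and multi-mapping settings were not stated there, and positions and sequences are left out. Smart-seq2, a full-length cDNA protocol without molecular identifiers, used 16 PCR cycles, per the labels' protocols. The authors also deposited a table titled TPM. Column sums differed in it, so other, length-scaled values, is the unit taken for its 23498 genes. PSMB7 was at 4.66 in stage 1 gilt 803 oocyte 1 (343284 counts in all) and at 400 in stage 4 gilt 801 oocyte 3 (38282850). Fits on this table applied no scaling to depth.

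Symbols came from an Ensembl table that named 14857 of 25880 IDs. Total counts had a median of 12139540 per oocyte; limits at 0 are 3 counts and cover counting error only. The oocytes of a gilt and stage were added up (19 sums of 1 to 4 oocytes). TMM factors of the sums ran from 0.270 (stage 3 gilt 201) to 3.585 (stage 1 gilt 205). The test was edgeR 4.0.16 under R 4.3.3, with glmQLFit and glmQLFTest after estimateDisp, TMM factors and a filterByExpr filter by stage; the SE of a log2 change is the change over the root of its F. The procedure was tested on simulated data. Gilt was a term of the model because sums of the same gilt share an animal; deviations from stage means correlated at a mean r of 0.0124, 0.136, 0.141 and 0.133 within gilts 201, 205, 801 and 803 and at -0.0318 between gilts. P-values of the stage comparisons measure how stage differences vary between gilts. In the gilt comparisons the sums of a gilt serve as its replicates, so those p-values hold no spread between animals. The common biological coefficient of variation was 1.24. DESeq2 1.42.0, limma 3.58.1, other factors and filters, and libraries left out served as alternatives. Named genes were the catalytic, immunoproteasome, activator and ubiquitin-handling members, the highest and lowest mean CPM of each class, which is not a ranking per length, and the 3 farthest fitted changes each way; other genes and single oocytes were picked with their values known. The members, the lists and the gilt comparisons were chosen with earlier results of these data known.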

Additional observations from a re-analysis of the deposited data

Results flagged for a closer look

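Dixon's test at the 95% level was applied to 42 groups of 4 to 10 values, and 3 groups held an outlying value. Chance alone would put about 1 in 20 over the limit if the values were independent and normally distributed. The oocytes share gilts and CPM values are skewed, so that rate does not hold here and the flags are descriptions. At stage 5 the core sum of stage 5 gilt 803 oocyte 2 was 3278 CPM, and the next highest of the 10 oocytes had 1191 CPM. The immunoproteasome sum of stage 5 gilt 803 oocyte 1 was 248 CPM, all of it PSMB10, and the next highest had 28.2 CPM. Both oocytes are granulosa-rich. PSMB11 at stage 1 was at 0.0917 TMM-scaled CPM in gilt 801 and at 0 in the other gilts, a value that rests on 4 counts in 1 oocyte. With the other gilts all at 0, any value above 0 would have been flagged.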

How the results depend on the processing

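The 9 counts of called proteasome genes, each 0 in the reported fits, were recomputed under 132 alternatives, of which 7 gave another count. DESeq2 called 1 gene, PSMB8, for stage 3 against stage 2, 1 for stage 4 against stage 3 and 1 for stage 5 against stage 4, and 4 genes in gilt 803. With no low-count filter 1 gene was called for any gilt difference and 1, PSMB4, in gilt 803, and with each oocyte as a library 2, PSMB4 and PSMD7, in gilt 803, where oocytes of a gilt are not independent. For gilt 803, DESeq2 called 2492 of all 15637 genes. The fit with no low-count filter called 1156 of 23035 (41 proteasome genes tested), and the fit on single oocytes 1399 of 12041 (38 tested). In each of these fits the share of all genes called was the larger. Leaving out each gilt in turn gave 0 to 0 calls. The cause of these differences was not tested.

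Gilt is the block of the reported fits, since the same animals gave several stages. The fits with no replicate block called 0 proteasome genes in the 7 stage comparisons; PSMB8 reversed in them, to 1.78 for stage 5 against stage 1 and 0.20 for the trend.

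Of 249 alternatives for 18 single-gene changes, 10 reversed the sign. Leaving out a gilt moved PSMB10 for stage 5 against stage 1 between -0.27 (without gilt 803) and 3.03, and PSMB8 between -7.26 and 1.16 (without gilt 205). The trend of PSMD9 moved between -0.062 (without gilt 803) and 0.32, and PSMB9 in gilt 803 between -1.93 and 0.69 (without gilt 801). Without the granulosa-rich oocytes PSMB9 was at 1.57 and PSMD4 at -1.36 in gilt 803. In the length-scaled table PSMD4 was at -0.13 there, PSMD11 at -0.43 for stage 5 against stage 1, and 18 of 35 genes were above 0 in gilt 803. That table was fitted without scaling to depth, and the part of depth in these values was not tested. Of 115 alternatives for 20 class levels, 15 moved by over 1 SD of the gilt medians at that stage. In 8 of them a level in non-mitochondrial CPM was set against one in CPM of all counts. The former unit gives higher values by construction, so these 8 do not measure stability. Leaving out the 2 immune-rich oocytes, chosen after seeing the data, changed no call. Only 4 gilts, and low counts of PSMB8, PSMB9, PSME1 and PSMB11, limit the precision.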
